A study of Mus musculus with 10 samples.

Results

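The hormone receptors of the mammary gland and the STAT5 pair were followed on arrays of 4 cell populations sorted from mouse mammary tissue. The 7 genes were chosen by symbol: the estrogen receptor Esr1, the progesterone receptor Pgr, the glucocorticoid receptor Nr3c1, the growth hormone receptor Ghr, the prolactin receptor Prlr and the transcription factors Stat5a and Stat5b. Probe sets annotated to exactly 1 of these symbols were taken, which gave 12 of the 22690 probe sets of the array. They covered 6 of the 7 genes, and Prlr was not analysed here. Esr1 and Pgr had 1 probe set each, Stat5a and Stat5b had 2 each, and Ghr and Nr3c1 had 3 each. A gene's main value came from its brightest probe set, by the mean of all 10 arrays.

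Tumour fibroblasts (CAF, 3 arrays) and the tumour populations labelled CSC (2 arrays) and TEC (2 arrays) were sorted from mammary tumours that the series calls Wnt-Met, of mice with the genotype label WAPCre-DNbcatn;HGF. Fibroblasts of control mammary glands (COF, 3 arrays) came from mice labelled WT. All mice carried the FVB/N strain label. Age, hormonal state, parity and the sorting gates were not stated in the labels. The Wap promoter, which drives Cre in this model, is active in the secretory epithelium of pregnancy and lactation, so tumour and control glands differ in the transgenes as well as in the tumour. On the TEC samples the sorted-cell field reads TEFs, whereas the title reads TEC. Since no label names a separate mouse for each array, p-values measure only the spread between these samples, which may be technical.

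Estrogen and progesterone act on the mammary epithelium through nuclear receptors that bind DNA, and many of their effects on neighbouring cells are carried by secreted factors such as amphiregulin and RANK ligand. Prolactin and growth hormone bind single-pass cytokine receptors at the cell surface, which activate the kinase JAK2. JAK2 phosphorylates STAT5A and STAT5B, which enter the nucleus and drive milk protein genes in the secretory epithelium and Igf1 in growth hormone target tissues. The glucocorticoid receptor is a steroid receptor present in most cell types, and it cooperates with STAT5 at milk protein genes.

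Stat5a and Stat5b are next neighbours among protein-coding genes on mouse chromosome 11 and lie on opposite strands. Their windows are shown because Stat5a passed between CSC and TEC and Stat5b did not. A difference between the 2 genes was not tested. RefSeq windows of 250 bases before to 50 bases after a start, on GRCm38.p6, were held for 6 of the 7 genes, 12 windows in all. The Stat5a window at chr11:100860234-100860533 (plus strand) and the Stat5b window at chr11:100822521-100822820 (minus strand) share a segment of 65 bases, of which 58 (89.2%) are identical. The segment runs over positions 185 to 249 of the Stat5a window and 194 to 258 of the Stat5b window, counted from 1 at the 5′ end. Capitals mark the identical bases of the segment.
Stat5a: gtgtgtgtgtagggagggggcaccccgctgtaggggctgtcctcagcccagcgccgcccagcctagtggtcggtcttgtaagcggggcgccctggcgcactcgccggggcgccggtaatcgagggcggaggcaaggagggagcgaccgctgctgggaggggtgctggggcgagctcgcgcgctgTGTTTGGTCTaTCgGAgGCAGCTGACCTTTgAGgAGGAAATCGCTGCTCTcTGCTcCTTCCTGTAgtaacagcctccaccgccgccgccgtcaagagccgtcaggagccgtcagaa
Stat5b: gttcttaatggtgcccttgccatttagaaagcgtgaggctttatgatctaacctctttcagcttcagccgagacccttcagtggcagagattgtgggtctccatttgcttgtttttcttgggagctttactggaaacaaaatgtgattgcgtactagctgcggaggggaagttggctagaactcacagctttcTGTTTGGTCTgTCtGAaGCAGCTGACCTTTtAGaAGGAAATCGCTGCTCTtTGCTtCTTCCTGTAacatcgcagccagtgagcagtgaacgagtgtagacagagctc
Outside this segment no capitals are given, and the next best pair of windows of these genes reached an ungapped match score (matches minus mismatches) of 15, against 51 for the printed pair. The STAT consensus TTCNNNGAA was found in 2 of the 12 windows, 1 of Esr1 and 1 of Prlr, against 8.3% of 32851 windows of all genes. The glucocorticoid half-site AGAACA, searched on both strands, was found in 1 of the 12 windows, of Prlr, against 19% of all windows. The nuclear receptor half-site AGGTCA, also searched on both strands, was found in 3 of the 12, 2 of Stat5a and 1 of Stat5b, the printed pair among them, against 16.3% of all windows. TTCNNNGAA reads the same on both strands, the 3 motifs may overlap, and matches are descriptions of the letters in these windows.

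The values are RMA log2 values, on which a difference of 1 is a doubling. Array medians lay between 6.89 and 7.02 and lower quartiles between 5.05 and 5.26. The 16 pan-fibroblast genes had median log2 values of 13.17 to 13.21 in CAF, 8.34 and 8.40 in CSC, 8.80 and 11.41 in TEC, and 13.32 to 13.42 in COF, so TEC replicate 2 stood apart from TEC replicate 1. The 15 measured pan-epithelial genes of 16 had medians of 6.25 to 6.55 in CAF, 11.85 and 11.91 in CSC, 8.98 and 9.34 in TEC, and 5.48 to 5.83 in COF. The 12 leukocyte genes had medians of 5.84 to 7.04 in CAF, 10.03 and 10.68 in CSC, 12.61 and 13.01 in TEC, and 4.95 to 5.33 in COF. Their summed linear levels were 1080 to 2430 in CAF, 14000 and 20900 in CSC, 69500 and 91100 in TEC, and 428 to 652 in COF. The fibroblast labels thus carried their defining genes at high levels, CSC had the highest epithelial levels of the 4 groups, and TEC had the highest leukocyte levels. The 12 macrophage genes had medians of 5.57 to 6.24 in CAF, 11.17 and 11.18 in CSC, 10.65 and 10.67 in TEC, and 5.28 to 5.41 in COF. Their summed linear levels were 1830 to 2610 in CAF, 47400 and 52500 in CSC, 56100 and 60800 in TEC, and 549 to 670 in COF. Between CSC and TEC the macrophage medians and sums thus went in opposite directions. The 7 measured adipocyte genes of 9 had medians of 6.51 to 6.86 in CAF against 8.41 to 8.84 in COF, and summed levels of 8400 to 11300 in CAF against 20100 to 21100 in COF. The part of adipocyte transcripts in the differences between CAF and COF was not tested. On the fibroblast arrays, 2 pan-epithelial genes in CAF and 3 to 5 in COF lay below the lower quartile, and no value is 0 after RMA. Differences of a gene between these populations were measured in bulk RNA, where fewer cells of a type and less RNA per cell cannot be told apart.

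Tumour fibroblasts had less Nr3c1 transcript than control fibroblasts. Esr1 and the main probe set of Stat5b were also lower there, but both calls were lost in most fits that left out a fibroblast array, and the second Stat5b set did not pass, at 0.17 in the other direction. The CSC population had more Stat5a and Ghr transcript than TEC. Against fibroblasts, both tumour populations had much less Ghr, and more Stat5b by its main probe set. Between CAF and COF, 3 of the 6 measured genes passed and all 3 fell, where 34.8% of all 12394 genes passed (18.1% higher, 16.7% lower) with limma at an adjusted p under 0.05. Between CSC and TEC, 2 of 6 rose and 0 fell, where 46.7% of all genes passed (26.6% higher, 20.1% lower). Between CAF and CSC, 3 were higher and 2 lower in CAF, where 66.5% of all genes passed (33.4% higher, 33.1% lower). Between CAF and TEC, 2 were higher and 1 lower in CAF, where 67.5% passed (38.6% higher, 28.9% lower). Between CSC and COF, 2 were higher and 4 lower in CSC, where 69.5% of all genes passed (33.7% higher, 35.8% lower). Between TEC and COF, 1 was higher and 3 were lower in TEC, where 68.2% passed (29.8% higher, 38.5% lower). In the mean of CSC and TEC minus the mean of CAF and COF, 2 rose and 3 fell, where 74.7% of all genes passed (34.6% higher, 40.1% lower). Contrasts with a group in common share its arrays and are not independent of each other. The 6 genes are too few for these counts to be a result about the genes as a set, so each gene is given on its own.

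**Figure D1:**
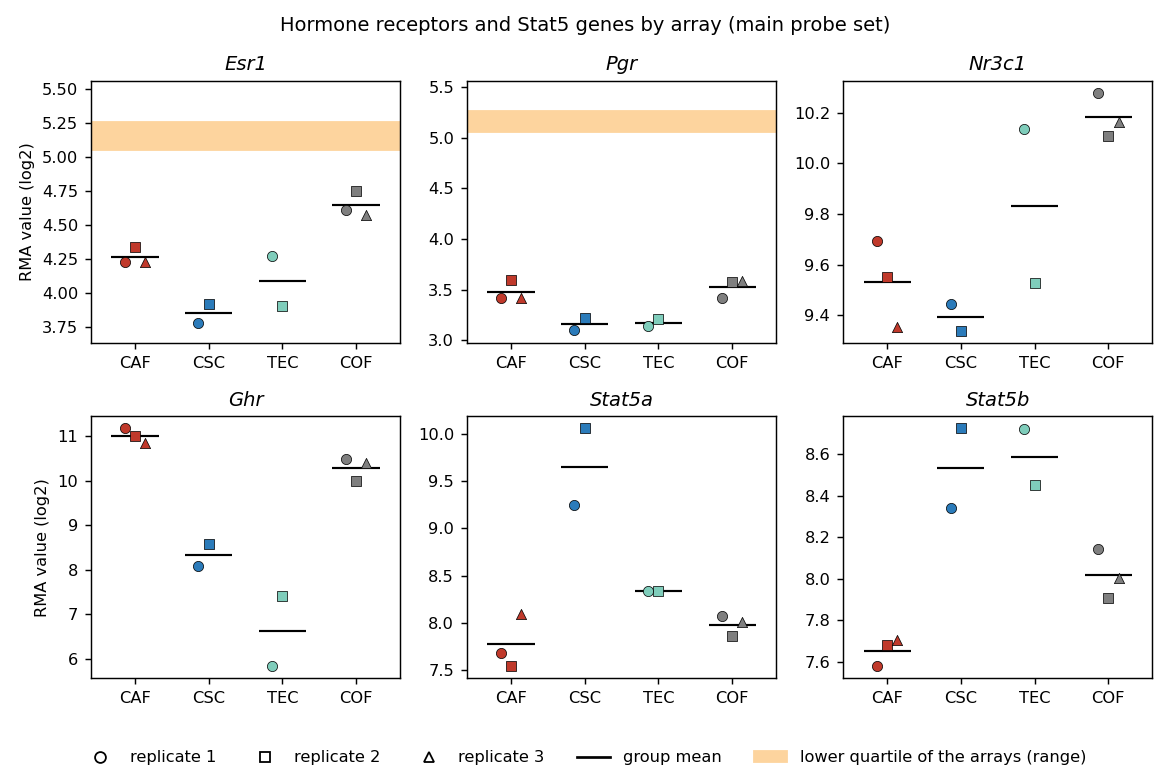
RMA log2 value of the main probe set of each measured gene on every array, by group (CAF, CSC, TEC, COF) on separate axes, with marker shapes for replicates and a line at the group mean; the band in the Esr1 and Pgr panels is the range of the arrays' lower quartiles. Ghr is between 10.83 and 11.17 in CAF and at 5.83 and 7.40 in TEC, and Stat5a is at 9.25 and 10.06 in CSC and at 8.34 and 8.33 in TEC.

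Esr1, the nuclear receptor for estradiol, was dim throughout. Its only probe set had log2 values of 4.23, 4.34 and 4.23 in CAF, 3.78 and 3.92 in CSC, 4.28 and 3.91 in TEC, and 4.61, 4.75 and 4.58 in COF. Every value lay below the lower quartile of its array, so the gene was measured near the dim end of the scale in all 4 populations. The CAF arrays were all below the COF arrays, where 56.6% of all genes had no overlap of these groups, in 1 direction or the other. Esr1 was lower in CAF by a log2 difference of -0.38 ± 0.11 (standard error), or 0.768 of the COF level, with a limma adjusted p of 0.0257. That call was lost when any 1 of the 6 fibroblast arrays was left out, with adjusted p-values up to 0.0830. CSC and COF differed by -0.79 ± 0.12 (adjusted p = 0.000366) and TEC and COF by -0.56 ± 0.12 (adjusted p = 0.00312). CAF exceeded CSC by 0.41 ± 0.12 (adjusted p = 0.0152), a difference of 0.21 with an adjusted p of 0.153 after a second quantile normalization. It also failed without CSC replicate 1, at 0.34 (adjusted p = 0.0897), and without CAF replicate 2, at 0.38 (adjusted p = 0.0512). CSC and TEC overlapped, and their difference of -0.24 did not pass (95% interval -0.54 to 0.07, adjusted p = 0.184). Without TEC replicate 2 that difference was -0.42 and passed (adjusted p = 0.0214). In the order COF, CAF, TEC, CSC of the group means, the CAF and TEC means (4.27 and 4.09) did not differ past the test (adjusted p = 0.232), nor did the CSC and TEC means.

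Pgr, the progesterone receptor and in many tissues a target of the estrogen receptor, varied least of the measured genes. Its log2 values were 3.42, 3.59 and 3.42 in CAF, 3.10 and 3.22 in CSC, 3.14 and 3.21 in TEC, and 3.42, 3.57 and 3.59 in COF, all below the lower quartile of their arrays. The whole range over the 10 arrays was 0.49, which only 7.78% of probe sets fell under. CAF and COF overlapped, with a difference of -0.05 ± 0.091 (95% interval -0.26 to 0.16, adjusted p = 0.737). CSC and TEC overlapped as well, with a difference of -0.02 (95% interval -0.27 to 0.23, adjusted p = 0.920). All 5 fibroblast-to-tumour contrasts passed, with Pgr lower in the tumour populations. The mean of CSC and TEC minus the mean of CAF and COF was -0.33 ± 0.072 (adjusted p = 0.00219). After a second quantile normalization the 4 contrasts of single populations did not pass, with differences of 0.14 (CAF minus CSC), 0.17 (CAF minus TEC), -0.20 (CSC minus COF) and -0.23 (TEC minus COF). The calls also depended on single arrays. CAF minus CSC was 0.26 without CAF replicate 2 (adjusted p = 0.0768) and 0.26 without CSC replicate 1 (adjusted p = 0.109). CAF minus TEC was 0.24 without CAF replicate 2 (adjusted p = 0.0931) and 0.27 without TEC replicate 1 (adjusted p = 0.0975). CSC minus COF was -0.31 without CSC replicate 1 (adjusted p = 0.0618), and TEC minus COF was -0.32 without TEC replicate 1 (adjusted p = 0.0539).

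Nr3c1, the glucocorticoid receptor, was well above the array median in every population and lower in tumour fibroblasts than in control fibroblasts. Its main probe set had log2 values of 9.69, 9.55 and 9.35 in CAF, 9.45 and 9.34 in CSC, 10.14 and 9.53 in TEC, and 10.28, 10.11 and 10.16 in COF. All 3 CAF arrays lay below all 3 COF arrays, where 56.6% of all genes had no overlap of these groups, in 1 direction or the other. The CAF minus COF difference of Nr3c1 was -0.65 ± 0.16, or 0.637 of the COF level, with a limma adjusted p of 0.0110. It passed with each of the 10 arrays left out in turn, with adjusted p-values of at most 0.0448. When the 2 most alike arrays of each fibroblast group were averaged, it missed the threshold at -0.68 (adjusted p = 0.0780). The second probe set had 9.22, 9.31 and 8.96 in CAF and 9.70, 9.36 and 9.47 in COF, without overlap, and its difference of -0.35 did not pass (adjusted p = 0.130). The dimmest set had 6.20, 5.91 and 5.33 in CAF and 6.69, 6.42 and 6.54 in COF, a difference of -0.74 ± 0.24 that passed (adjusted p = 0.0426). All 3 sets thus pointed the same way, and 2 of 3 passed, where 33.7% of 20393 probe sets did in this contrast.

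Among the tumour populations Nr3c1 depended on the TEC array. TEC replicate 1 lay near COF (10.14) and TEC replicate 2 near CAF (9.53). CSC fell below COF by -0.79 ± 0.17 (adjusted p = 0.00290). CSC minus TEC was -0.44 ± 0.19 and did not pass (95% interval -0.87 to -0.01, adjusted p = 0.0883), and without TEC replicate 2 it was -0.74 (adjusted p = 0.00398). TEC minus COF was -0.35 ± 0.17 and did not pass (adjusted p = 0.101), and without TEC replicate 1 it was -0.66 (adjusted p = 0.00420). CAF minus TEC was -0.30 (adjusted p = 0.155). It was 0.0054 without TEC replicate 1 and -0.60 without TEC replicate 2 (adjusted p = 0.00593). CAF and CSC overlapped, with a difference of 0.14 (95% interval -0.25 to 0.53, adjusted p = 0.493). Over the 4 populations the mean tumour against fibroblast difference of -0.25 did not pass (adjusted p = 0.0978), and without TEC replicate 1 it was -0.40 and passed (adjusted p = 0.00414). The dimmest probe set did pass there, at -0.58 (adjusted p = 0.0208), while the second set had 0.08 (adjusted p = 0.586). The probe sets of Nr3c1 therefore did not give 1 answer for tumour populations against fibroblasts.

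Ghr, the cell-surface receptor for growth hormone, varied most of the measured genes. Its main probe set ranged over 5.34 log2 units, a range wider than that of 97.2% of probe sets. The log2 values were 11.17, 11.00 and 10.83 in CAF, 8.09 and 8.58 in CSC, 5.83 and 7.40 in TEC, and 10.47, 9.99 and 10.40 in COF. All 3 probe sets placed the group means in the order CAF, COF, CSC, TEC. CAF exceeded CSC by 2.67 ± 0.39, or 6.34-fold (adjusted p = 0.000257), and exceeded TEC by 4.38 ± 0.39, or 20.9-fold (adjusted p = 1.41e-05). The other sets gave 2.43 and 2.37 for CAF minus CSC and 3.54 and 2.77 for CAF minus TEC, all past the test. The third set lay below the lower quartile on both TEC arrays and close to it on both CSC arrays, which limits what its differences and its order of CSC and TEC show. CSC and TEC lay below COF by -1.95 ± 0.39 (adjusted p = 0.00154) and -3.67 ± 0.39 (adjusted p = 3.21e-05). Each of these 4 differences passed with every array left out in turn.

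The tumour and control fibroblasts also stood apart in Ghr, but the call depended on which arrays set the spread. CAF minus COF was 0.71 ± 0.34, or 1.64-fold (95% interval -0.066 to 1.49), and did not pass with the spread pooled over 10 arrays (adjusted p = 0.149). The 3 CAF arrays were all above the 3 COF arrays, which 56.6% of all genes also showed in 1 direction or the other. With only the 6 fibroblast arrays in the fit the same difference had an adjusted p of 0.00607. It also passed when 1 TEC array, replicate 1 or replicate 2, was left out. The TEC arrays differed by more than 1.5 log2 units in this gene, and that spread entered the pooled error. The second set had 10.16, 9.92 and 10.04 in CAF and 9.56, 9.17 and 9.41 in COF, a difference of 0.66 (adjusted p = 0.0660). The third set had 7.70, 7.50 and 7.46 in CAF and 7.43, 7.11 and 7.46 in COF, which overlapped (0.22, adjusted p = 0.201).

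CSC had more Ghr transcript than TEC. The difference was 1.72 ± 0.42, or 3.29-fold (limma adjusted p = 0.00874), and the other sets gave 1.10 (adjusted p = 0.0140) and 0.40 (adjusted p = 0.0489). The difference did not pass with only the 4 CSC and TEC arrays in the fit (adjusted p = 0.0927), nor without CSC replicate 2, at 1.47 (adjusted p = 0.0647). It was 0.93 without TEC replicate 1 and 2.50 without TEC replicate 2, past the test in both cases. With the mean of all Ghr probe sets it was 1.07 (adjusted p = 0.00676). TEC replicate 2, the TEC array with the higher pan-fibroblast median (11.41 against 8.80), was also the TEC array with more Ghr (7.40 against 5.83). On the CSC arrays the pan-fibroblast medians were 8.34 and 8.40 and Ghr was 8.09 and 8.58. The part of fibroblast transcripts in these differences was not tested.

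**Figure D2:**
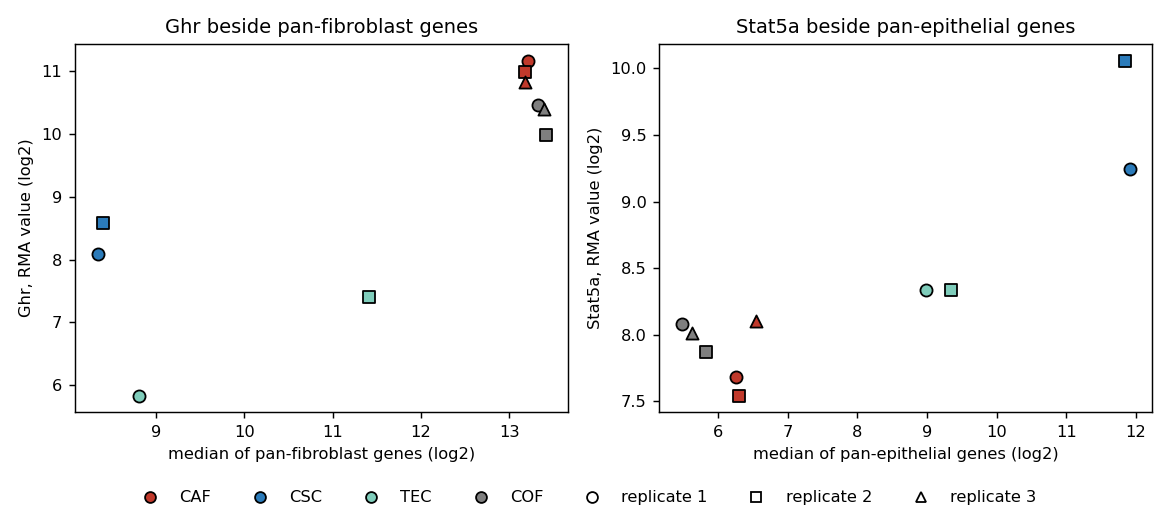
Left, Ghr (RMA log2) against the median of 16 pan-fibroblast genes, and right, Stat5a (RMA log2) against the median of 15 pan-epithelial genes, with 1 point per array, coloured by group and shaped by replicate. TEC replicate 2 has a pan-fibroblast median of 11.41 and Ghr at 7.40, below both CSC arrays (8.09 and 8.58), whose pan-fibroblast medians are 8.34 and 8.40.

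Stat5a, the STAT5 form that mouse mammary gland development in pregnancy depends on, was highest in CSC. Its main probe set had log2 values of 7.68, 7.54 and 8.10 in CAF, 9.25 and 10.06 in CSC, 8.34 and 8.33 in TEC, and 8.08, 7.87 and 8.01 in COF. Both CSC arrays were above every other array, and the share of all genes that did the same was not counted. CSC exceeded TEC by 1.32 ± 0.25, or 2.49-fold (limma adjusted p = 0.00248), and the call held with each array left out in turn, with adjusted p-values of at most 0.0129 and differences of 0.91 to 1.72. CSC exceeded COF by 1.67 ± 0.23 (adjusted p = 0.000178), and CAF was below CSC by -1.88 ± 0.23 (adjusted p = 9.8e-05). The second probe set had 4.74, 5.16 and 5.08 in CAF, 7.09 and 7.43 in CSC, 5.74 and 5.79 in TEC, and 5.14, 4.84 and 5.04 in COF. It gave the same order of group means, CSC, TEC, COF, CAF, with a CSC minus TEC difference of 1.49 ± 0.17 (adjusted p = 0.000141). Of the 12 probe sets of the genes, 5 passed between CSC and TEC, all 3 of Ghr and both of Stat5a, where 44.9% of all probe sets did.

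The other populations were closer to each other in Stat5a. CAF minus COF was -0.21 ± 0.21 (95% interval -0.68 to 0.26, adjusted p = 0.505), and the second set gave -0.01 (adjusted p = 0.961), with overlap in both. TEC lay above the fibroblast arrays by less than CSC did. CAF minus TEC was -0.56 ± 0.23 for the main set, which did not pass (adjusted p = 0.0572), and -0.77 for the second set, which passed (adjusted p = 0.00189). TEC minus COF was 0.35 (adjusted p = 0.206) for the main set, which passed with only the TEC and COF arrays in the fit (adjusted p = 0.0372), and 0.76 (adjusted p = 0.00202) for the second set. All 6 fibroblast values of the second set lay below the lower quartile of their arrays, so the size of its differences from the fibroblasts is set against a floor. With the mean of both sets CAF minus TEC was -0.67 (adjusted p = 0.00769) and TEC minus COF was 0.55 (adjusted p = 0.0182). The pan-epithelial medians followed the same order of CSC over TEC over the fibroblast groups, at 11.85 and 11.91 in CSC against 8.98 and 9.34 in TEC, and their part in the Stat5a differences was not tested.

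Stat5b, the STAT5 form best known for growth hormone signalling in mouse liver, differed between tumour populations and fibroblasts in its main probe set, whereas CSC and TEC did not differ past the test. The main probe set had log2 values of 7.58, 7.68 and 7.70 in CAF, 8.34 and 8.72 in CSC, 8.72 and 8.45 in TEC, and 8.14, 7.91 and 8.00 in COF. CSC and TEC overlapped, with a difference of -0.05 ± 0.15 (95% interval -0.40 to 0.29, adjusted p = 0.801). CAF was below CSC by -0.88 ± 0.14 (adjusted p = 0.000455) and below TEC by -0.93 ± 0.14 (adjusted p = 0.000314). Above COF, CSC reached 0.51 ± 0.14 (adjusted p = 0.00870) and TEC 0.57 ± 0.14 (adjusted p = 0.00527). The CSC minus COF call was lost without CSC replicate 2, at 0.32 (adjusted p = 0.0877). Whether the CSC minus TEC difference of Stat5a was itself different from that of Stat5b was not tested.

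The 2 Stat5b probe sets did not give the same calls. The main set was lower in CAF than in COF by -0.36 ± 0.12 (adjusted p = 0.0485), with no overlap. In 56.6% of all genes CAF and COF did not overlap either. The second set had 6.46, 6.60 and 6.46 in CAF, 6.67 and 6.48 in CSC, 7.05 and 6.59 in TEC, and 6.36, 6.37 and 6.30 in COF. Its CAF minus COF difference was 0.17, in the other direction and without overlap, and did not pass (adjusted p = 0.357). The mean of both sets gave -0.10 (adjusted p = 0.518). The call of the main set was also lost in 5 of the 6 fits that left out a fibroblast array, with adjusted p-values of 0.0886 to 0.162, and when the prior was made robust and allowed to follow mean intensity (adjusted p = 0.0513). Against the tumour populations the second set did not pass in CAF minus CSC (-0.06, adjusted p = 0.700), in CAF minus TEC (-0.31, adjusted p = 0.0710) or in CSC minus COF (0.23, adjusted p = 0.167). It passed in TEC minus COF (0.48, adjusted p = 0.0121). The mean of both sets gave a CAF minus CSC difference of -0.47 (adjusted p = 0.00521). Stat5a and Stat5b are close paralogs, and whether their probes also bind the other transcript was not tested.

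**Figure D3:**
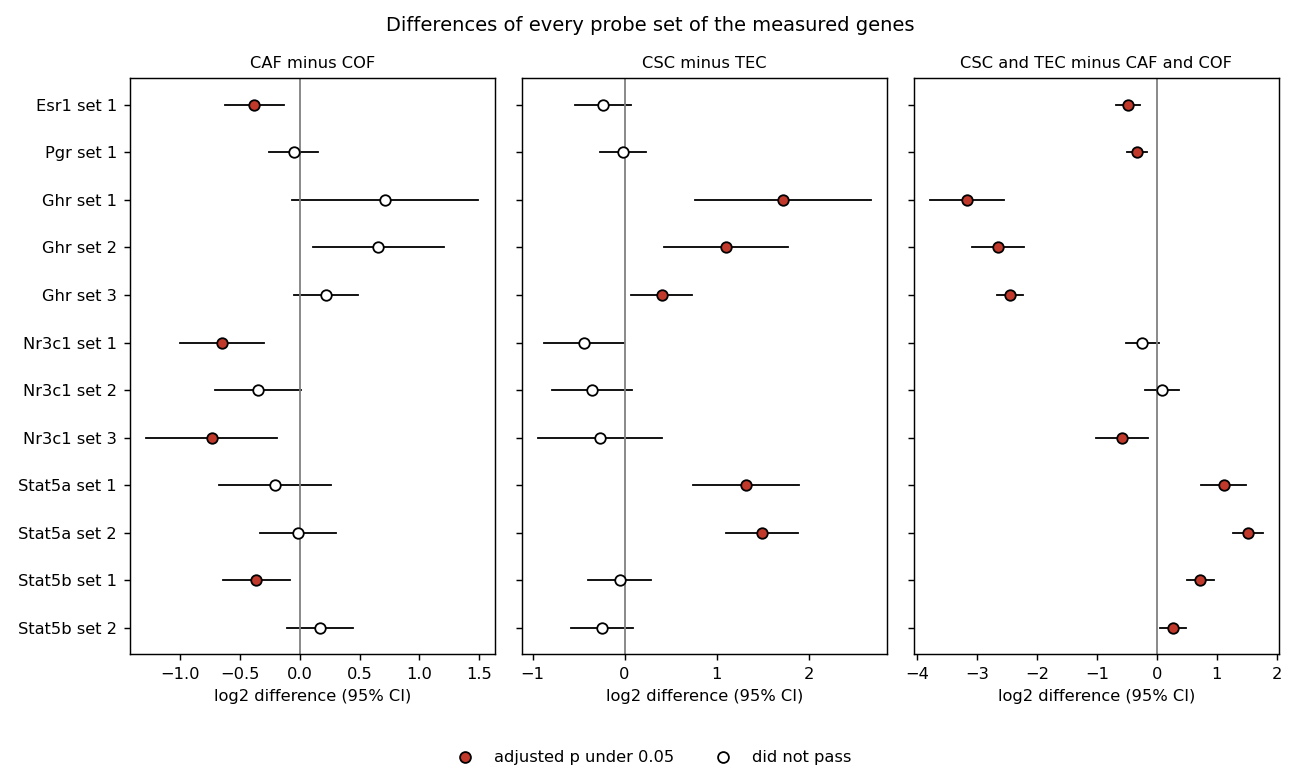
Log2 difference with its 95% confidence interval for each of the 12 probe sets, in CAF minus COF, CSC minus TEC, and the mean of CSC and TEC minus the mean of CAF and COF; filled points passed limma at an adjusted p under 0.05. Set 1 is the main probe set of a gene. All 3 Ghr sets and both Stat5a sets lie right of 0 in CSC minus TEC, and the 2 Stat5b sets lie on opposite sides of 0 in CAF minus COF.

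Of 14 genes for JAK kinases and STAT5 feedback, all measured, 1 rose, 4 fell and 9 did not pass between CAF and COF (median difference -0.061, against 0.018 over all genes). That is 35.7% of the list, near the 34.8% of all genes that passed, and no result about the list. The 4 that fell were Jak1, a kinase of cytokine receptors, and Cish, Socs1 and Socs2, which STAT5 induces and which dampen cytokine receptor signalling. Cish, Socs1 and Socs2 were singled out after their values were seen. Cish had log2 values of 8.82, 8.79 and 8.81 in CAF and 10.04, 9.79 and 9.90 in COF, a difference of -1.11 ± 0.17 (adjusted p = 0.00131). Socs2, the main brake on growth hormone receptor signalling in mice, had 9.84, 9.89 and 10.13 in CAF and 10.72, 10.77 and 10.61 in COF, a difference of -0.75 ± 0.12 (adjusted p = 0.00169). Socs1 differed by -0.56 ± 0.10 (adjusted p = 0.00203). For each of the 3 genes every CAF array lay below every COF array. CAF and COF arrays also did not overlap, in 1 direction or the other, in 56.6% of all genes. The calls of Cish, Socs1 and Socs2 held with each array left out in turn. Socs3, which STAT3 also induces, did not pass (-0.17, adjusted p = 0.281). Ptpn2, a phosphatase of JAK and STAT proteins, was the gene that rose (0.66 ± 0.10, adjusted p = 0.00101).

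In CSC minus TEC the same list held 0 genes that rose, 10 that fell and 4 that did not pass (median difference -0.69, against 0.00 over all genes), where 26.6% of all genes rose and 20.1% fell. Jak2, the kinase bound to the growth hormone and prolactin receptors, had log2 values of 9.31 and 9.22 in CSC and 11.49 and 11.13 in TEC, a difference of -2.04 ± 0.15 (adjusted p = 1.7e-05). Jak2 was therefore lower in CSC while Ghr and Stat5a were higher there. The phosphatases Ptpn6 (-1.71 ± 0.17) and Ptpn1 (-1.43 ± 0.18) and the feedback gene Socs3 (-0.82 ± 0.13) also fell, with adjusted p-values of 6.3e-05, 0.000227 and 0.000848. Socs2 differed by -0.93 and Socs1 by -0.68, both past the test, whereas Cish did not pass (-0.44, adjusted p = 0.116). With only the 4 CSC and TEC arrays in the fit the Socs1 call was lost (adjusted p = 0.0562). Ptpn6 is a phosphatase of blood cells. The leukocyte medians were 10.03 and 10.68 in CSC against 12.61 and 13.01 in TEC. The macrophage medians were 11.17 and 11.18 in CSC against 10.65 and 10.67 in TEC. The summed macrophage levels went the other way, at 47400 and 52500 in CSC against 56100 and 60800 in TEC. The part of blood-cell transcripts in these differences was not tested. With only the 4 CSC and TEC arrays in the fit, 6 of the 14 genes passed, where 3013 of all 12394 genes did.

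Other STAT genes differed in both contrasts, with Stat3 and Stat2 lower in CAF and Stat4 and Stat6 lower in CSC. Of 4 measured of 5, 1 rose and 2 fell between CAF and COF, where 18.1% of all genes rose and 16.7% fell. Between CSC and TEC, 0 rose and 2 fell. That is 50% of the measured list, near the 46.7% of all genes that passed, and no result about the list. Stat3, the STAT of involution and inflammation, had 11.19, 11.17 and 11.40 in CAF and 12.07, 11.95 and 12.03 in COF, a difference of -0.76 ± 0.11 (adjusted p = 0.000884). Stat2, which carries interferon signals, differed by -0.93 ± 0.25 between CAF and COF (adjusted p = 0.0198), a call lost in 4 of the fits that left out an array. Stat6, which carries interleukin signals, rose in CAF by 0.52 ± 0.14 (adjusted p = 0.0175), a call lost in 3 such fits. Between CSC and TEC, Stat4, a STAT of lymphocytes, differed by -3.01 ± 0.37 (adjusted p = 0.000215) and Stat6 by -1.24 ± 0.17 (adjusted p = 0.000344), beside the leukocyte medians given above.

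Most of the listed STAT5 targets were higher on the tumour fibroblast arrays than on the control fibroblast arrays. Cish, Socs1 and Socs2, which STAT5 also induces, were placed in the feedback list and fell in this contrast (-1.11, -0.56 and -0.75). Of 12 target genes, all measured, 7 rose, 1 fell and 4 did not pass between CAF and COF (median difference 1.87), where 18.1% of all genes rose and 16.7% fell. Neither Stat5a probe set passed there. The genes that rose were Wap, Csn2, Csn1s1 and Csn3, which encode milk proteins, Elf5, a transcription factor of the luminal epithelium, the cyclin Ccnd1, and Igf1. Wap, which is also the promoter of the Cre transgene, had 8.75, 8.67 and 8.91 in CAF and 5.96, 5.66 and 5.85 in COF, a difference of 2.96 ± 0.13 (adjusted p = 5.67e-06). Elf5 had 6.31, 6.59 and 7.49 in CAF and 4.45, 5.20 and 4.33 in COF (2.14 ± 0.32, adjusted p = 0.000986), and 1.21 with the mean of its probe sets, with all 3 COF values below the lower quartile. The summed linear levels of pan-epithelial genes were 1930 to 2800 in CAF against 1090 to 1800 in COF. Those of 10 measured luminal genes of 11 were 2040 to 2970 in CAF against 771 to 1330 in COF, and those of 9 basal genes were 4470 to 5030 in CAF against 502 to 1880 in COF. The part of epithelial transcripts in the rise of the milk and epithelial genes was not tested. The gene that fell was Bcl6, a repressor that competes with STAT5 for its sites (-0.68 ± 0.16, adjusted p = 0.00902).

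Igf1, the growth factor that growth hormone induces, is a STAT5 target that is also a fibroblast product, and it was singled out after its values were seen. It had log2 values of 13.00, 13.09 and 12.96 in CAF, 7.94 and 7.81 in CSC, 8.44 and 11.15 in TEC, and 11.17, 11.21 and 11.23 in COF. CAF stood above COF on every array, by 1.81 ± 0.53 or 3.52-fold (adjusted p = 0.0256). CAF and COF also did not overlap, in 1 direction or the other, in 56.6% of all genes. The call of Igf1 was lost when any 1 of the 6 fibroblast arrays was left out (adjusted p-values up to 0.0755), while the difference stayed between 1.78 and 1.84. When 1 TEC array, replicate 1 or replicate 2, was left out, the same difference of 1.81 passed. As for Ghr, the 2 TEC arrays lay far apart, and TEC replicate 2, the array with the higher pan-fibroblast median, was the higher one. CSC minus TEC was -1.93 ± 0.65 (adjusted p = 0.0354), and it was -3.28 without TEC replicate 1 and -0.57 without TEC replicate 2. With the other 8 arrays left out in turn, CSC minus TEC did not pass.

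In CSC against TEC, 4 STAT5 targets rose, 3 fell and 5 did not pass (median difference 0.86), where 26.6% of all genes rose and 20.1% fell. Elf5 rose by 3.29 ± 0.39 (9.81-fold), Ccnd1 by 2.22 ± 0.23 (4.65-fold), Wap by 2.04 ± 0.16 (4.13-fold) and Igfals by 1.33 ± 0.20, with adjusted p-values of 0.000156, 8.13e-05, 2.01e-05 and 0.000694. The caseins Csn2, Csn1s1 and Csn3 did not pass, with differences of 0.66, 1.47 and 1.06. Pim1, a kinase gene that cytokines induce, had 11.18 and 10.66 in CSC and 12.86 and 12.45 in TEC, a difference of -1.73 ± 0.19 (adjusted p = 0.000107). In the mean of CSC and TEC minus the mean of CAF and COF, 11 of the 12 targets rose and 1 fell, where 34.6% of all genes rose and 40.1% fell.

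Of 11 measured of 14 estrogen receptor partners, 1 rose, 6 fell and 4 did not pass between CAF and COF (median difference -0.60), where 18.1% of all genes rose and 16.7% fell. Cited1, a coactivator of the estrogen receptor, had 4.84, 4.68 and 5.10 in CAF and 6.79, 7.03 and 6.77 in COF, a difference of -1.99 ± 0.13 (adjusted p = 2.14e-05), with all 3 CAF values below the lower quartile of their arrays, so that the size is set against a floor. Ncoa1, a coactivator of steroid receptors, had 8.30, 8.27 and 8.26 in CAF and 9.43, 9.08 and 9.39 in COF (-1.02 ± 0.11, adjusted p = 0.000168). Tbx3, a transcription factor of hormone-sensing mammary epithelium, had 6.96, 7.16 and 7.31 in CAF and 8.64, 8.69 and 8.62 in COF (-1.51 ± 0.17, adjusted p = 0.000229), and -0.64 with the mean of its probe sets. Nrip1, a corepressor that estrogen induces, fell by -0.62 ± 0.17 (adjusted p = 0.0184), a call lost in 3 of the fits that left out an array. The Nrip1 call was also lost with the mean of its probe sets, at -0.43 (adjusted p = 0.137). With the most alike arrays averaged its adjusted p was 0.151. Ncoa3 (-0.69) and the progesterone-binding Pgrmc1 (-0.60) fell as well, and Gata3, a luminal regulator, rose (0.85, adjusted p = 0.0385).

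CSC had more of several partners than TEC: 5 of the 11 rose, 1 fell and 5 did not pass (median difference 0.60), where 26.6% of all genes rose and 20.1% fell. Gata3 rose by 2.49 ± 0.33 (5.60-fold) and Nrip1 by 1.53 ± 0.20 (2.89-fold), with adjusted p-values of 0.000320 and 0.000316. Xbp1 (0.83), Pgrmc1 (0.96) and Pgrmc2 (0.60) rose too, Ncoa2 fell (-0.48), and Foxa1, which opens chromatin for the estrogen receptor, did not pass (0.85, adjusted p = 0.0522). With only the 4 CSC and TEC arrays in the fit 3 of the 11 passed, where 3013 of all 12394 genes did. Esr1 itself did not pass in this contrast.

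Estrogen and progesterone targets moved in both directions. Of 13 measured of 15, 3 rose, 4 fell and 6 did not pass between CAF and COF (median difference -0.14). Over all genes 18.1% rose and 16.7% fell there. Greb1, a target and cofactor of the estrogen receptor, had 6.03, 6.11 and 5.69 in CAF and 7.37, 7.73 and 7.49 in COF, a difference of -1.59 ± 0.13 (adjusted p = 6.78e-05). Id4 (-2.19) and Wnt4 (-0.39), a progesterone target of the epithelium, also fell, with Cited1. Tnfsf11, which encodes RANK ligand, had 9.27, 9.28 and 9.18 in CAF, 3.68 and 3.26 in CSC, 3.99 and 5.07 in TEC, and 3.90, 5.00 and 4.25 in COF. The CAF minus COF difference was 4.86 ± 0.32 (adjusted p = 2.31e-05). All 3 COF values lay below the lower quartile of their arrays, so the size of this difference is set against a floor, and Pgr stood below the lower quartile in both groups. Ccnd1 rose by 1.93 ± 0.19 (adjusted p = 0.000125) and Elf5 rose as given above. Between CSC and TEC, 7 targets rose, 1 fell and 5 did not pass (median difference 0.51), where 26.6% of all genes rose and 20.1% fell. The largest differences of the targets were those of Elf5, Igfbp5 (2.47), Car12 (2.27), Ccnd1 and Id4 (2.13), while Myb fell (-1.18).

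**Figure D4:**
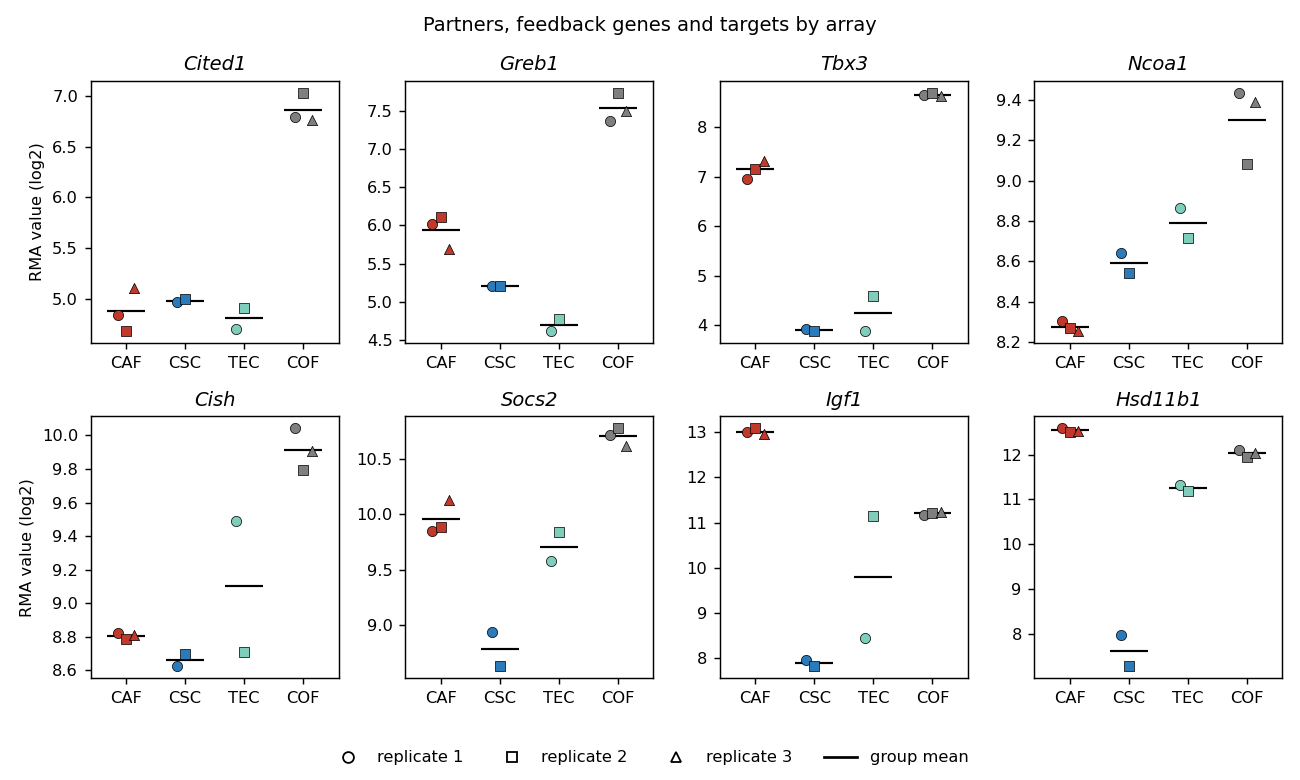
RMA log2 values on every array, by group, for the estrogen receptor partners and targets Cited1, Greb1, Tbx3 and Ncoa1 (upper row) and for Cish, Socs2, Igf1 and Hsd11b1 (lower row), with shapes for replicates, a line at the group mean and separate axes. In the upper row and for Cish and Socs2 the CAF arrays are below the COF arrays, and Igf1 is between 12.96 and 13.09 in CAF against 11.17 to 11.23 in COF. Over all genes, 56.6% had no overlap of CAF and COF arrays.

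Other nuclear hormone receptors changed little among fibroblasts. Of 12 measured of 14, 1 rose, 0 fell and 11 did not pass between CAF and COF (median difference -0.071), where 34.8% of all genes passed. The gene that rose was Vdr, the vitamin D receptor (0.83 ± 0.20, adjusted p = 0.0111). When the 2 most alike arrays of each fibroblast group were averaged, Vdr missed the threshold (adjusted p = 0.0802). CSC against TEC gave 3 that rose and 1 that fell, where 26.6% of all genes rose and 20.1% fell. Rxra, the shared partner of many nuclear receptors, rose by 0.75 ± 0.12 (adjusted p = 0.000745), and by 0.24 (adjusted p = 0.0524) with the mean of its probe sets. Rara, a retinoic acid receptor, fell by -0.87 ± 0.17 (adjusted p = 0.00279). Vdr (0.67, adjusted p = 0.0480) and the estrogen-related receptor Esrra (0.43, adjusted p = 0.0422) rose too. The call was lost in 8 of the 10 fits that left out an array for Vdr and in 7 for Esrra.

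Glucocorticoid targets were divided. Of 15, all measured, 2 rose, 5 fell and 8 did not pass between CAF and COF (median difference -0.25). Over all genes 18.1% rose and 16.7% fell there. Cdkn1c, a cell cycle inhibitor, had 8.92, 8.79 and 8.75 in CAF and 10.22, 10.90 and 10.33 in COF (-1.66 ± 0.23, adjusted p = 0.000815). Per1, a clock gene, had 8.90, 8.97 and 9.25 in CAF and 10.14, 9.98 and 10.06 in COF (-1.02 ± 0.22, adjusted p = 0.00609). When the 2 most alike arrays of each fibroblast group were averaged, Per1 missed the threshold (adjusted p = 0.0810). Klf9 (-0.99), Mt1 (-0.53) and Zbtb16 (-0.38) fell too. Fkbp5, a chaperone that glucocorticoids induce and that lowers receptor affinity, went the other way, with 9.50, 9.63 and 9.64 in CAF and 8.60, 8.74 and 8.61 in COF (0.94 ± 0.12, adjusted p = 0.000539), as did Ddit4 (1.24, adjusted p = 0.00625). Tsc22d3, which encodes the glucocorticoid-induced leucine zipper, did not pass (-0.47, adjusted p = 0.155). In CSC against TEC 3 rose, 3 fell and 9 did not pass (median difference 0.29). That is 40% of the list, near the 46.7% of all genes that passed, and no result about the list. Per1 (-1.30 ± 0.27, adjusted p = 0.00342) and the phosphatase gene Dusp1 (-1.07 ± 0.10, adjusted p = 4.52e-05) fell. With only the 4 arrays of these groups 1 of the 15 passed, where 3013 of all 12394 genes did.

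Most measured chaperones that hold steroid receptors in a ligand-binding state were higher in CSC than in TEC. Of 7 measured of 9, 6 rose, 0 fell and 1 did not pass there (median difference 0.76), where 26.6% of all genes rose. Against COF, 4 were higher in CSC and 3 did not pass, where 33.7% of all genes were higher. Between CAF and COF, 1 rose, 1 fell and 5 did not pass, where 34.8% of all genes passed. Fkbp4, a co-chaperone of the progesterone and glucocorticoid receptors, had 9.82 and 9.92 in CSC and 8.11 and 8.42 in TEC (1.61 ± 0.18, adjusted p = 0.000123), and a difference of 0.90 with the mean of its probe sets. Dnaja1 (1.16 ± 0.21, adjusted p = 0.00156), St13 (0.76 ± 0.11, adjusted p = 0.000532) and Hsp90aa1 (0.76 ± 0.14, adjusted p = 0.00190) rose, and St13 had 0.39 with the mean of its probe sets. Fkbp5 did not pass (-0.01, adjusted p = 0.980).

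Of the enzymes that make or remove steroid ligands, 10 of 13 were measured. Between CAF and COF 3 rose, 2 fell and 5 did not pass, where 34.8% of all genes passed. Between CSC and TEC 3 rose, 2 fell and 5 did not pass. That is 50% of the measured list, near the 46.7% of all genes that passed, and no result about the list. Hsd11b1, which regenerates active glucocorticoid inside cells, had 12.59, 12.51 and 12.53 in CAF, 7.96 and 7.27 in CSC, 11.32 and 11.19 in TEC, and 12.11, 11.95 and 12.03 in COF. CSC lay below TEC by -3.64 ± 0.19, or 0.0804 of the TEC level (adjusted p = 5.39e-06). CAF exceeded COF by 0.51 ± 0.16 (adjusted p = 0.0301), a call lost when any 1 of the 6 fibroblast arrays was left out. Hsd17b2, which inactivates estradiol, rose in CSC by 1.19 ± 0.13 (adjusted p = 0.000102), Hsd17b4 by 1.33 ± 0.15 (adjusted p = 0.000128) and Hsd17b7, which forms estradiol, by 0.88 ± 0.18 (adjusted p = 0.00340). With only the 4 CSC and TEC arrays in the fit the Hsd17b7 call was lost (adjusted p = 0.0687). Between CAF and COF, Hsd17b7 fell by -0.61 ± 0.15 (adjusted p = 0.0113) and Hsd17b4 rose by 0.40 ± 0.12 (adjusted p = 0.0339). The Hsd17b4 call was lost in 5 fits that left out an array. The Hsd17b7 call was lost when the 2 most alike arrays of each fibroblast group were averaged (adjusted p = 0.0827).

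**Figure D5:**
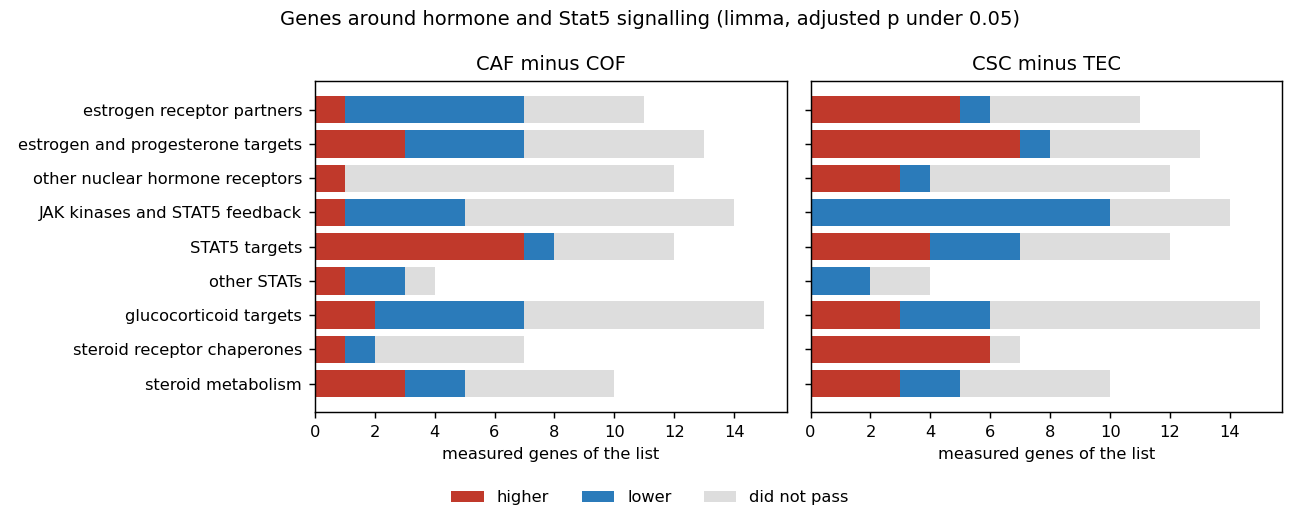
Number of measured genes of each list that were higher, lower or did not pass limma at an adjusted p under 0.05, for CAF minus COF (left) and CSC minus TEC (right). JAK kinases and STAT5 feedback has 10 of 14 genes lower in CSC than in TEC, and 7 of 12 STAT5 targets are higher in CAF than in COF. Over all genes, 20.1% were lower in CSC than in TEC and 18.1% were higher in CAF than in COF.

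The genes whose log2 values followed each member most closely over the 10 arrays were named by Pearson's r. The r values are a description of 10 arrays that fall into 4 groups. Esr1 was followed by Fxr2 (0.987), Tent2 (0.967) and Ngfr (0.967), and Pgr by Hsd3b1 (0.964), Pramel1 (0.961) and Slc22a26 (0.956). Nr3c1 was followed by Vps37c (0.965), Arid4b (0.960) and Foxj2 (0.954). Ghr was followed by Casp12 (0.997), Cbx6 (0.995) and Cryz (0.992), and 194 genes in all had r above 0.95. Stat5a was followed by Rrp36 (0.991), Dalrd3 (0.979) and Araf (0.978), and Stat5b by Ogt (0.994), Pygo2 (0.985) and Tut1 (0.981). Stat5a had 82 and Stat5b 64 genes above 0.95, against 12 for Esr1, 6 for Pgr and 5 for Nr3c1. Casp12 had mean log2 values of 9.68 in CAF, 7.50 in CSC, 6.31 in TEC and 9.07 in COF, in the same order as Ghr. Ogt, the most alike of Stat5b, had means of 7.19 in CAF, 9.51 in CSC, 9.54 in TEC and 7.94 in COF.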

How the data were processed

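RNA of 10 sorted samples (100 ng of total RNA, per the labels' protocols) was measured on 1-colour Affymetrix arrays for mouse. The authors deposited log2 values, and per the submitters' processing notes RMA was used, which corrects background, equalises array distributions and summarises probes. The sources used here do not give RMA's version or whether 1 run covered all arrays. No further normalization was applied to these log2 values.

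Groups and replicate numbers came from the sample titles. Of the probe sets, 20393 carried 1 gene symbol in the 2016 array annotation, whereas 691 carried several and 1606 carried none and were left out. The probe set with the highest mean represented each of 12394 genes. The tests were limma's (version 3.58.1, lmFit then eBayes, R 4.3.3) with a model of group alone, the spread pooled over 10 arrays, and two-sided p-values adjusted by Benjamini-Hochberg over all genes of a contrast (threshold 0.05). Other probe sets of a member were tested in the fit of all 20393. Errors with differences are moderated standard errors, intervals are 95% confidence intervals, and precision is limited by how few arrays there are. The fit was tested on simulated data.

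The members, gene lists and tests were chosen with earlier results of these data known. Named beside the members were the genes ranking first by adjusted p in each list, up to 4, in CAF minus COF or CSC minus TEC, and the 3 genes most alike to each member by Pearson's r. Every other list gene named in the text was chosen after its values were seen. Of 197 list and marker genes 181 were measured. Alternatives were a fit of only the contrast's arrays, the replicate number as a block, a mean-variance trend with robust prior, no dimmest 30% of genes, every probe set tested, the mean of a gene's probe sets, no _x_at or _s_at sets, a second quantile normalization, median centring, an adjusted p under 0.01, and each array left out in turn. The averaging of the most alike arrays, the contrasts CSC minus COF and TEC minus COF, and the repeats for gene lists and their genes were added after seeing the data. The labels do not state that a replicate number marks a shared mouse or day, so the numbers were not taken as pairs. Same-numbered arrays of different groups deviated together (r above 0.1) in 1 of 13 pairs, against 2 of 24 pairs with different numbers. Deviations were taken from group means. In a group of 2 arrays they mirror each other, so this comparison cannot show or exclude pairing.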

Additional observations from a re-analysis of the deposited data

How the results depend on the processing

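Of the log2 differences of the 6 measured genes in 7 contrasts, 798 values under other settings kept their direction and their side of the threshold, 44 lost it, 19 gained it and 7 changed direction; the cause was not tested except where the setting removes genes or arrays. The values that changed direction were small: Pgr in CSC minus TEC was 0.029 after a second quantile normalization, 0.017 without TEC replicate 2 and 0.042 without CSC replicate 1, in a range of -0.076 to 0.042 with an array left out. Stat5b in CSC minus TEC was 0.078 without TEC replicate 1 and 0.14 without CSC replicate 1 (range -0.25 to 0.14). In CAF minus TEC, Nr3c1 was 0.0054 without TEC replicate 1 (range -0.60 to 0.0054) and Esr1 was -0.0090 without TEC replicate 2 (range -0.0090 to 0.36).

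The 3 members called in CAF minus COF became 1 with the replicate block (Nr3c1; Esr1 had an adjusted p of 0.0541 and Stat5b of 0.0952; the block also turned Nr3c1 past the threshold in TEC minus COF, at -0.40 with adjusted p = 0.0469, and in tumour minus fibroblast arrays, at -0.30 with adjusted p = 0.0439), 0 at an adjusted p under 0.01, 0 with the most alike arrays averaged and 1 to 4 with an array left out. The 2 in CSC minus TEC became 1 with only the contrast's arrays and 1 to 4 with an array left out. The 5 in CAF minus CSC became 3 without the dimmest 30% of genes, which removes Esr1 and Pgr, and 3 after a second quantile normalization, at an adjusted p under 0.01 and with alike arrays averaged, and 3 to 5 with an array left out. Without the dimmest 30% the 4 in TEC minus COF became 2 and the 5 in tumour minus fibroblast arrays became 3.

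Calls over all genes in CAF minus COF were 4309, against 6878 with every probe set tested, 2638 at an adjusted p under 0.01, 1805 with alike arrays averaged and 2980 to 5100 with an array left out. In CSC minus TEC they were 5786, against 3013 with only the contrast's arrays and 9152 with every probe set. With every probe set the others were 13222 (CAF minus CSC), 13544 (CAF minus TEC), 13813 (CSC minus COF), 13804 (TEC minus COF) and 15063 (tumour minus fibroblast arrays).

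For the gene lists in CAF minus COF, partners fell to 4 and 3 calls at an adjusted p under 0.01 and with alike arrays averaged, other receptors to 0 and 0, other STATs to 1 and 1, chaperones to 1 and 1, steroid enzymes to 0 and 0, and glucocorticoid targets to 3 in the second case. With only the contrast's arrays other receptors had 2 and chaperones 4 calls. With an array left out the ranges were 1 to 3 for other STATs, 1 to 3 for chaperones and 1 to 5 for steroid enzymes. In CSC minus TEC, only the contrast's arrays gave 3 partners, 5 estrogen and progesterone targets, 1 other receptor, 6 JAK and feedback genes and 1 glucocorticoid target. In that fit 3013 of all 12394 genes passed. The replicate block gave 2 other receptors, the filter on dim genes 1 other STAT, the stricter threshold 5 estrogen and progesterone targets, 2 other receptors and 3 glucocorticoid targets, and averaging 2 other receptors. With an array left out the ranges were 2 to 4 for other receptors and 3 to 9 for glucocorticoid targets. The low signal of Esr1 and Pgr limits what their arrays can show.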
